A study of Sus scrofa with 15 samples.

Results

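The genes that take a cell from G1 into S phase and copy its genome were followed in IPEC-J2, a non-transformed pig epithelial cell line from the jejunum, in which RNA sequencing measured 15 libraries from cells carrying lentiviral vectors. The list held 54 pig gene symbols, and a gene of the deposited tables belonged to it when its NCBI Gene number mapped to one of them. Of the 54 genes, 54 were listed in the knockdown table, among 19000 genes in all, and 54 in the overexpression table, among 17001. Levels are in FPKM, fragments per kilobase of transcript scaled to the mapped fragments of a library, which the authors deposited and which allow different genes to be compared per length.

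The knockdown table held 3 groups of 3 libraries. Lv133KD carried a vector to knock down the microRNA miR-133, Lv143KD carried a second knockdown vector, and Lv3NC carried the control vector for knockdown. The series' design text gives both knockdown vectors the same target, miR-133, which the name Lv143KD contradicts, so what that vector targets is unsettled and the group is called by its label. The overexpression table held OV143, with a vector to raise the microRNA miR-143, and Lv20NC, its control vector, with 3 libraries each. Every group was the same cell line with a lentiviral vector, and no library analysed here came from cells without one. The sources used here do not give the promoters of the vectors, the time after infection, the density of the cells or their cell cycle stage. The microRNA levels were not checked here, and no label tells if libraries of 1 group are separate cultures, so every p-value below rests on a spread between samples that may be technical.

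In the cell cycle, cyclin E with its kinase phosphorylates the retinoblastoma protein and so frees the E2F transcription factors, which drive transcription of many genes of replication. During G1 the origin recognition complex, CDC6 and CDT1 load the MCM helicase onto DNA, and in S phase CDC45 and the GINS complex switch it on, polymerase alpha with its primase starts each strand, and polymerases delta and epsilon extend it on the PCNA clamp. Because transcripts of many of these genes are known to build up in late G1 and S phase, their levels in bulk RNA are commonly read as a mark of proliferating cells.

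The cells matched the epithelial label: the keratin gene KRT8 lay between 520 and 888 FPKM and the adhesion gene EPCAM between 267 and 359 FPKM in the knockdown table, although the brush border gene VIL1 was low (0.98 to 2.65 FPKM). Of the 5 leukocyte markers, PTPRC was listed at 0 in 9 of 9 knockdown-table libraries and CD14 reached 2.29 FPKM. Of the 8 fibroblast markers, DCN, LUM and PDGFRA did not exceed 0.01 FPKM there, while COL1A1 lay between 2.25 and 5.09 FPKM, and the endothelial gene CDH5 was present at 8.28 to 10.8 FPKM. Libraries did not sort by vector in the knockdown table. Over all genes tested, the library nearest to Lv133KD replicate 1 was Lv143KD replicate 1, and the one nearest to Lv133KD replicate 2 was Lv143KD replicate 2 (each 0.11 apart as a root mean square on the log2 scale). Lv143KD replicate 3 and Lv3NC replicate 3 were each other's nearest library (0.19 apart) and stood away from the rest. The labels were followed here, and whether labels or cultures were mixed was not tested, which bears on every comparison of vectors in this table. In the overexpression table OV143 replicate 2 stood apart, at 0.40 from its nearest library, and its FPKM values summed to 662022, while the other 5 libraries summed to between 518578 and 558042. FPKM does not keep read totals, so the depth behind each value is unknown. Medians and genes named in the comparisons of vectors are also given without these libraries where they rest on them.

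All 9 roles into which the genes were grouped were represented. In the knockdown table the mean level over 9 libraries ran from 2.07 FPKM for E2F2 to 127 FPKM for PCNA, with a median over the 54 genes of 15 FPKM, against 11.4 FPKM over all genes tested. At least 50 FPKM was reached by 8 genes: PCNA, RFC2, RRM2, MCM4, MCM6, RRM1, MCM7 and SLBP. A further 25 genes lay between 10 and 50 FPKM, and 21 lay below 10 FPKM. In the overexpression table the mean level ran from 2.74 FPKM for E2F2 to 154 FPKM for PCNA, with a median of 16.1 FPKM. The tables were normalised separately, so levels were compared only within a table.

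The ranges of the genes were wide over the 9 knockdown-table libraries and narrow over the 6 overexpression-table libraries. In the knockdown table the highest library was at least 2 times the lowest for 31 of 54 genes (57.4%), against 18.8% of all genes tested, and the median ratio of highest to lowest library was 2.18, against 1.51 over all genes. For the overexpression libraries, 0 of 54 genes reached a ratio of 2, against 12.1% of all genes, and the median ratio was 1.25, against 1.48. Genes were tested where at least 3 libraries of a table had at least 1 FPKM, which left 11645 and 11506 genes. The filter kept 54 of the 54 genes in each table.

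**Figure D1:**
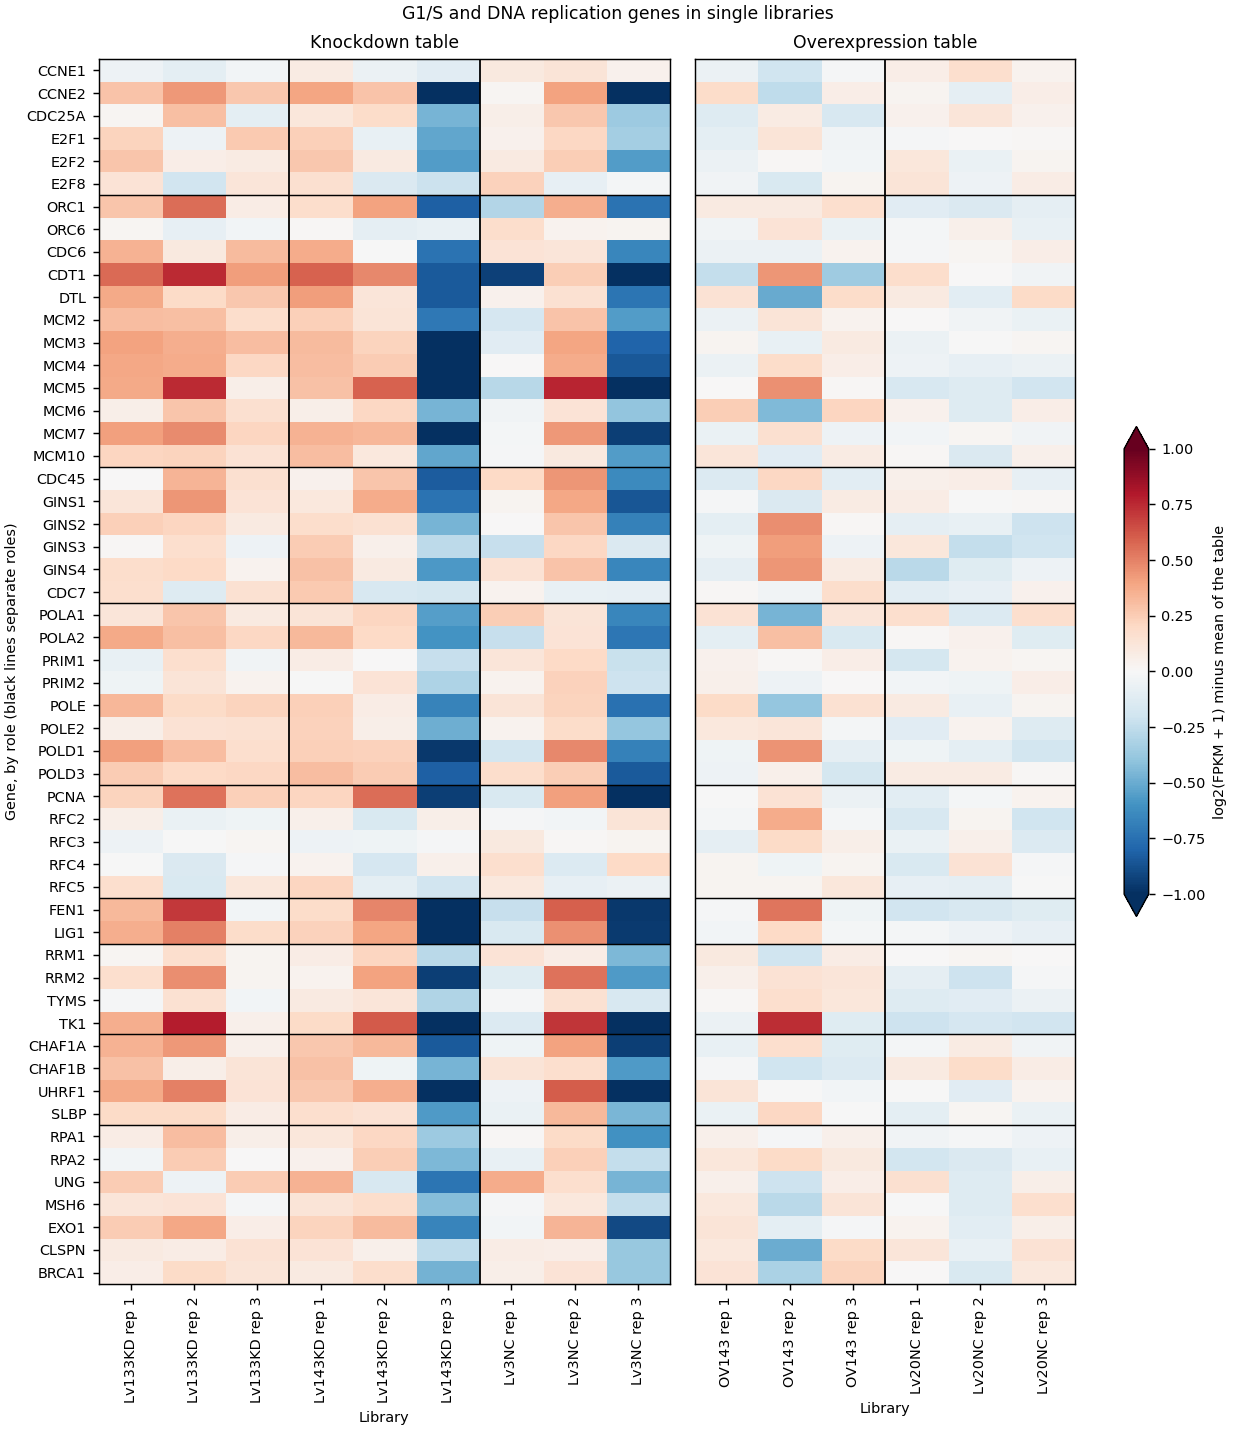
Each cell is 1 gene in 1 library, coloured by log2(FPKM + 1) minus the mean of that gene over the libraries of the same table, with the 54 genes grouped by role down the page and the libraries across it. The columns of Lv143KD replicate 3 and Lv3NC replicate 3 are blue for most genes, with medians of -0.56 and -0.57, and OV143 replicate 2 holds both colours.

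The low levels were in 2 libraries of different vectors. For 44 of 54 genes (81.5%), Lv143KD replicate 3 and Lv3NC replicate 3 were the 2 lowest of the 9 libraries of the knockdown table, against 27.8% of all genes tested. This pattern was picked out after the values were seen, and it has no test. The median deviation of the 54 genes from their table mean, on the log2(FPKM + 1) scale, was -0.56 in Lv143KD replicate 3 and -0.57 in Lv3NC replicate 3. In the other 7 libraries the same median lay between 0.01 (Lv3NC replicate 1) and 0.23 (Lv3NC replicate 2). In bulk RNA, fewer cells in S phase and less transcript per cell cannot be told apart.

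**Figure D2:**
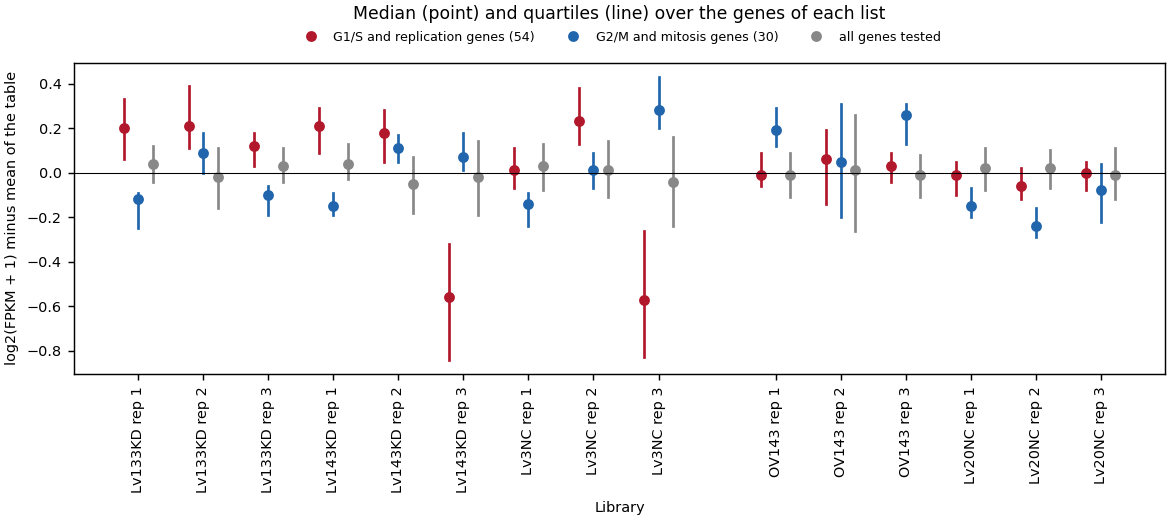
Points are medians and lines the quartiles of log2(FPKM + 1) minus the table mean in each library, for the 54 G1/S and replication genes, 30 genes of G2/M and mitosis, and all genes tested. Lv143KD replicate 3 and Lv3NC replicate 3 hold the lowest medians of the 54 genes (-0.56 and -0.57), while the median of all genes lies between -0.05 and 0.04 in every library.

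Within its own group, Lv143KD replicate 3 was the lowest of 3 libraries for 50 of 54 genes (all genes: 41.7%) and Lv3NC replicate 3 for 48 (all genes: 45.3%). The median distance below the mean of the other 2 libraries of the group was -0.73 and -0.72 on the log2 scale. A distance of more than 1 log2 unit below was found for 17 genes (31.5%; all genes: 0.979%) in Lv143KD and 13 genes (24.1%; all genes: 1.37%) in Lv3NC. For Lv133KD replicate 3 the shift was smaller. That library was the lowest of its group for 27 of 54 genes (50%), against 29.5% of all genes. It was the highest for 9.26% of the 54 genes, against 33.5% of all genes. Its median distance was -0.09, and no gene lay more than 1 log2 unit below (all genes: 0.0859%).

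**Figure D3:**
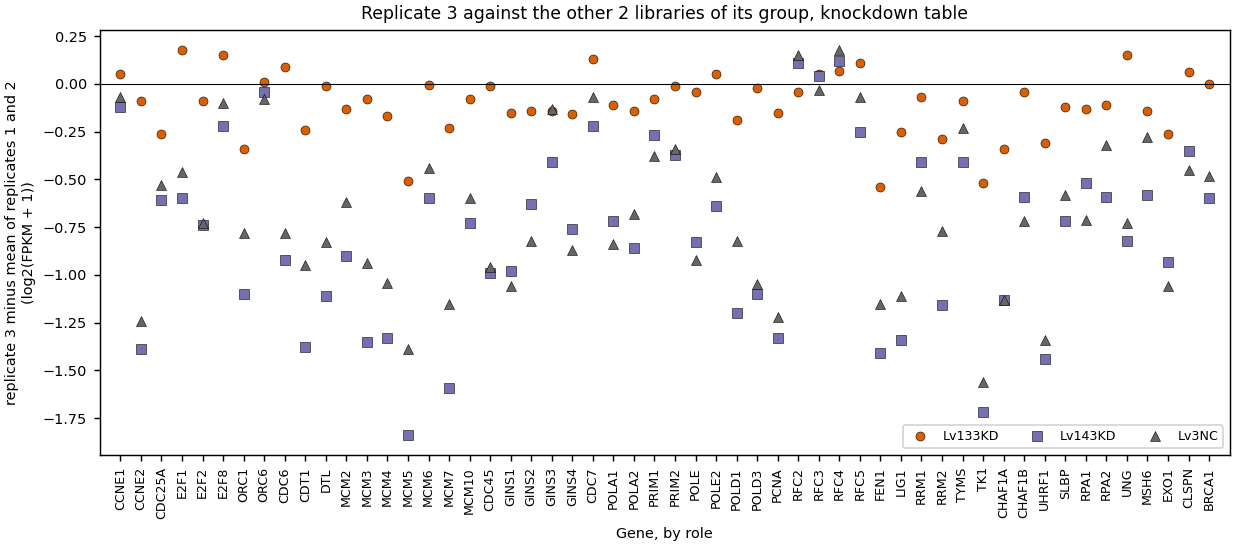
Each point is log2(FPKM + 1) of replicate 3 minus the mean of replicates 1 and 2 of the same group, for each of the 54 genes in order of role. Lv143KD and Lv3NC reach -1.84 and -1.56 at their lowest, while Lv133KD stays between -0.54 and 0.18.

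Whether levels differed between libraries of different replicate number was tested for each gene with limma, by a moderated F test with the vector in the fit and Benjamini-Hochberg adjustment over all genes of the table. At an adjusted p under 0.05, 38 of 54 genes (70.4%) differed in the knockdown table, against 36.6% of all genes tested. Number 3 was lowest for 37 of the 38, with RFC4 the exception, and for 1786 of the 4266 called among all genes. Number 2 was highest for 30 of the 38, and for 1675 of those 4266. The term averages over vectors, and with 1 library for each vector and number its difference between vectors could not be tested. The count depended on single libraries: it was 6 of 54 without Lv143KD replicate 3 (all genes: 14.1%), 11 without Lv3NC replicate 3 (20.4%; all genes: 23.1%), 13 without Lv3NC replicate 2 (24.1%; all genes: 20.3%), 14 without Lv143KD replicate 2 (25.9%; all genes: 12.4%) and 24 without Lv3NC replicate 1 (44.4%; all genes: 28.9%). Without either low library the share of the 54 genes was thus below the share of all genes. Without both Lv143KD replicate 3 and Lv3NC replicate 3 it was 12 of 54 (22.2%), against 24.8% of all genes.

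Values of the genes follow by role, for the gene with the highest level and the gene with the largest mean difference between vectors in each role, and each group's values are in the order of replicates 1, 2 and 3. Coordinates are those of the RefSeq gene table of Sscrofa11.1. Each adjusted p for replicate number is from the fit of all 9 libraries. Without Lv143KD replicate 3 and Lv3NC replicate 3, 12 of 54 genes passed (22.2%; all genes: 24.8%). Among the regulators of the G1/S step, E2F1 (NCBI Gene 100153846; chromosome 17 from 37178587 to 37190118), an activator of the E2F family, had 19.6, 16.03 and 20.2 FPKM in Lv133KD, 19.8, 15.8 and 11.3 FPKM in Lv143KD, and 17.1, 19.4 and 12.9 FPKM in Lv3NC. Replicate 3 was lowest in Lv143KD and Lv3NC and highest in Lv133KD, and the replicate number term did not pass (limma adjusted p = 0.192). CCNE2 (NCBI Gene 100512048; chromosome 4 from 41802090 to 41821870), which encodes cyclin E2, had 5.49, 6.19 and 5.42 FPKM in Lv133KD, 6.02, 5.48 and 1.58 FPKM in Lv143KD, and 4.39, 6.04 and 1.60 FPKM in Lv3NC. The 2 low libraries lay at 1.58 and 1.60 FPKM, every other library had at least 4.39 FPKM, and the gene differed by replicate number (adjusted p = 0.0221). Its paralog CCNE1 had 5.79, 5.56 and 5.89 FPKM in Lv133KD, 6.43, 5.73 and 5.49 FPKM in Lv143KD, and 6.53, 6.66 and 6.23 FPKM in Lv3NC, a highest to lowest ratio of 1.21, and did not differ by number (adjusted p = 0.709). The phosphatase gene CDC25A and the activator E2F2 differed by number (adjusted p = 0.00823 and 0.0308), and the repressor E2F8 did not pass (0.0597).

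The widest ranges of single genes were in origin licensing, for CDT1 and MCM5. MCM4 (NCBI Gene 100156398; chromosome 4 from 79674737 to 79686964), part of the MCM2-7 helicase ring, had 98.1, 97.4 and 86.5 FPKM in Lv133KD, 92.96, 89.5 and 35.6 FPKM in Lv143KD, and 75.2, 97.02 and 41.1 FPKM in Lv3NC. Its 2 low libraries stood below every other library by a wide gap, and the number term gave number 3 below number 1 by -0.80 on the log2 scale (adjusted p = 0.0155). The other subunits of the ring did likewise: MCM2, MCM3, MCM5, MCM6 and MCM7 each differed by number, with adjusted p between 0.00547 (MCM5) and 0.0377 (MCM6). MCM5 ranged most among them, at 18.7, 24.5 and 14.8 FPKM in Lv133KD, 17.6, 21.8 and 4.74 FPKM in Lv143KD, and 11.6, 24.7 and 5.84 FPKM in Lv3NC, a highest to lowest ratio of 5.21. MCM6 ranged least, with a ratio of 1.68.

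CDT1 (NCBI Gene 100525749; chromosome 6 from 893377 to 897706), the licensing factor that brings MCM2-7 to origins, had 9.94, 11.4 and 8.86 FPKM in Lv133KD, 10.1, 9.28 and 3.12 FPKM in Lv143KD, and 2.86, 7.76 and 2.02 FPKM in Lv3NC. It was the gene with the widest range of the 54, 5.63 between highest and lowest library, and Lv3NC replicate 1 was low along with the 2 replicates 3 of Lv3NC and Lv143KD. Every Lv133KD library lay above every Lv3NC library. CDT1 differed by replicate number (adjusted p = 0.0296), as did ORC1 (0.00562), a subunit of the origin recognition complex, DTL (0.0367), which directs the destruction of CDT1 in S phase, and the replication initiator MCM10 (0.0342). CDC6, the loading factor that acts with CDT1, had 5.15, 4.17 and 5.0 FPKM in Lv133KD, 5.23, 3.81 and 1.89 FPKM in Lv143KD, and 4.29, 4.24 and 2.07 FPKM in Lv3NC and did not pass (adjusted p = 0.0557). ORC6, another subunit of the origin recognition complex, was nearly level at 11.9, 10.98 and 11.5 FPKM in Lv133KD, 11.8, 10.9 and 11.06 FPKM in Lv143KD, and 13.4, 12.01 and 11.9 FPKM in Lv3NC (adjusted p = 0.38).

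**Figure D4:**
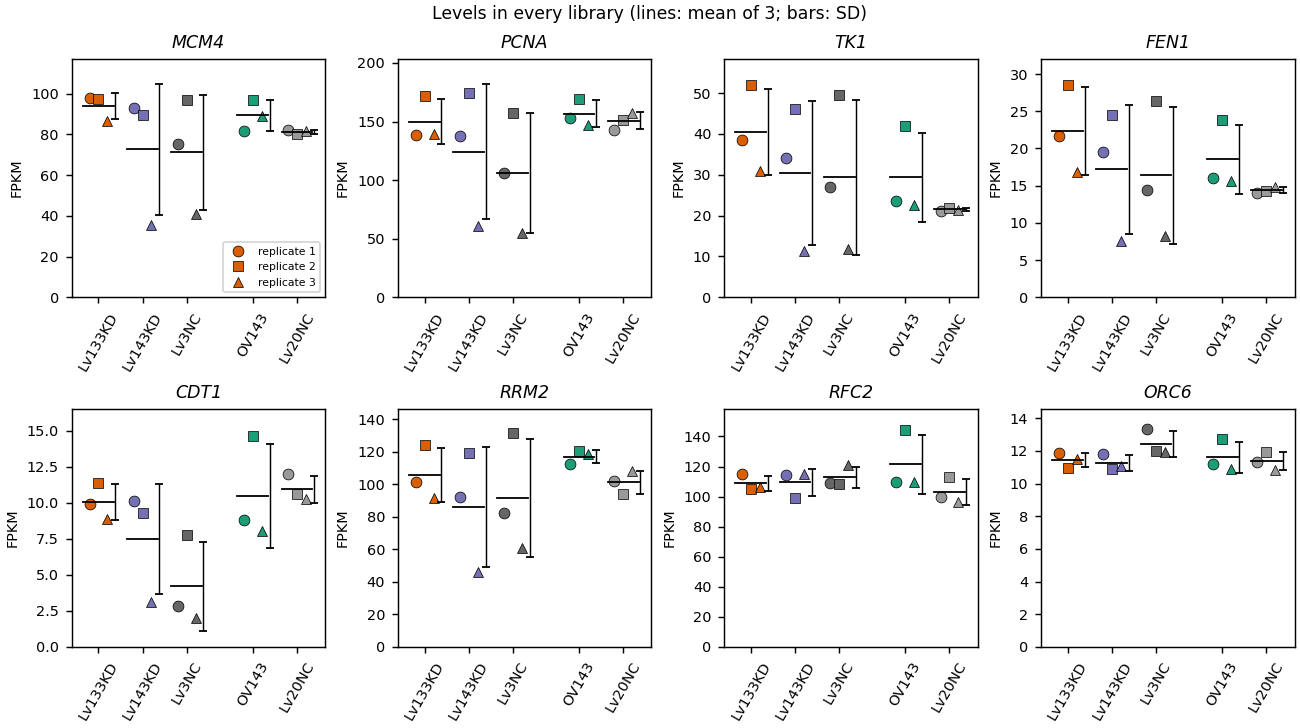
FPKM of 8 genes in every library, with marker shape for replicate number, a horizontal line for the mean of 3 libraries and a bar for its SD. MCM4, PCNA, TK1, FEN1, CDT1 and RRM2 have low triangles in Lv143KD and Lv3NC, while RFC2 and ORC6 are nearly level in the knockdown table. The axes of the 2 tables hold separately normalised values.

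For helicase activation, GINS1 (NCBI Gene 106504085; chromosome 17 from 31060540 to 31076807), one of the GINS proteins, had 42.5, 53.2 and 42.8 FPKM in Lv133KD, 42.01, 50.8 and 22.9 FPKM in Lv143KD, and 39.8, 51.3 and 21.1 FPKM in Lv3NC. Replicate 2 was highest in each vector and the 2 low libraries had 22.9 and 21.1 FPKM, with an adjusted p of 0.0103 for the number term. GINS2 (NCBI Gene 100512784; chromosome 6 from 3218655 to 3252740), another subunit, had 5.22, 5.12 and 4.61 FPKM in Lv133KD, 4.97, 4.86 and 2.82 FPKM in Lv143KD, and 4.30, 5.40 and 2.30 FPKM in Lv3NC (adjusted p = 0.0229). GINS4 and CDC45 differed by number as well (0.0175 and 0.0241). GINS3 and CDC7, the kinase that fires origins, did not pass (0.178 and 0.118), and neither had the 2 low libraries below the other 7.

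Of 8 genes of polymerases and primase, 5 differed by replicate number, against 70.4% of the 54 genes and 36.6% of all genes tested. POLA2 (NCBI Gene 100513971; chromosome 2 from 6922384 to 6950289), the regulatory subunit of polymerase alpha, had 29.7, 28.1 and 26.2 FPKM in Lv133KD, 28.6, 26.1 and 14.6 FPKM in Lv143KD, and 19.1, 24.9 and 13.3 FPKM in Lv3NC. The 2 low libraries and Lv3NC replicate 1 were its lowest 3, the Lv133KD libraries lay above all 3 Lv3NC libraries, and the number term had an adjusted p of 0.0256. POLA1, POLD1, POLD3 and POLE also passed, with adjusted p between 0.0232 (POLA1) and 0.0297 (POLE). The primase subunits PRIM1 and PRIM2 and the polymerase epsilon subunit POLE2 did not (0.0771, 0.059 and 0.0959), and the highest to lowest ratio was 1.37 for PRIM1 and 1.5 for PRIM2.

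PCNA (NCBI Gene 692192; chromosome 17 from 14137746 to 14142584), the sliding clamp that holds polymerases on DNA, had 138, 172 and 139 FPKM in Lv133KD, 137, 174 and 60.95 FPKM in Lv143KD, and 106, 157 and 54.7 FPKM in Lv3NC. The 2 low libraries lay far below the next lowest, Lv3NC replicate 1, and PCNA differed by number (adjusted p = 0.0112). The clamp loader that opens PCNA did not follow it. RFC2 had 115, 105 and 107 FPKM in Lv133KD, 114, 98.9 and 115 FPKM in Lv143KD, and 109, 108 and 121 FPKM in Lv3NC, and the 2 libraries that were low for PCNA were the highest of the 9 for RFC2, by a small margin. RFC3 had 42.3, 43.8 and 44.5 FPKM in Lv133KD, 42.3, 42.5 and 43.6 FPKM in Lv143KD, and 47.04, 44.2 and 44.8 FPKM in Lv3NC, the narrowest range of all 54 genes at a ratio of 1.11. RFC4 passed the number term (adjusted p = 0.0484) with number 2 as the lowest, and RFC2, RFC3 and RFC5 did not pass (0.295, 0.948 and 0.0766).

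FEN1 (NCBI Gene 100517749; chromosome 2 from 9752004 to 9756863), the flap endonuclease that trims Okazaki fragments, had 21.7, 28.6 and 16.8 FPKM in Lv133KD, 19.6, 24.4 and 7.59 FPKM in Lv143KD, and 14.5, 26.4 and 8.28 FPKM in Lv3NC. Replicate 2 was highest and replicate 3 lowest under each vector, and FEN1 had the smallest adjusted p of the 54 genes for the number term, 0.00285. LIG1, the ligase that seals the same fragments, had 17.3, 19.04 and 15.1 FPKM in Lv133KD, 15.6, 17.6 and 5.96 FPKM in Lv143KD, and 11.7, 18.5 and 6.31 FPKM in Lv3NC (adjusted p = 0.0103).

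Among genes of deoxynucleotide supply, RRM2 (NCBI Gene 100316853; chromosome 3 from 126357198 to 126367145), the small subunit of ribonucleotide reductase, had 101, 124 and 91.4 FPKM in Lv133KD, 92.1, 119 and 46.3 FPKM in Lv143KD, and 82.5, 131 and 60.5 FPKM in Lv3NC. TK1 (NCBI Gene 110255958; chromosome 12 from 3785997 to 3794824), the thymidine kinase of the salvage route, had 38.5, 51.9 and 30.9 FPKM in Lv133KD, 34.1, 45.97 and 11.4 FPKM in Lv143KD, and 26.9, 49.5 and 11.8 FPKM in Lv3NC. For both, replicate 2 was highest and replicate 3 lowest under each vector, and the TK1 level in the 2 low libraries was 11.4 and 11.8 FPKM, below the lowest of the other 7 at 26.9 FPKM. The number term had adjusted p of 0.00606 for RRM2 and 0.00365 for TK1. RRM1, the large subunit, and TYMS, which makes thymidylate, passed with smaller ranges (adjusted p = 0.0366 and 0.0472, ratios of 1.6 and 1.38).

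For chromatin made behind the fork, SLBP (NCBI Gene 100513605; chromosome 8 from 802940 to 818161), which binds the stem loop of histone messages, had 63.4, 63.5 and 58.4 FPKM in Lv133KD, 62.3, 61.4 and 37.2 FPKM in Lv143KD, and 53.1, 69.7 and 40.3 FPKM in Lv3NC. UHRF1 (NCBI Gene 100511003; chromosome 2 from 73898061 to 73937727), which recognises hemimethylated DNA, had 11.5, 12.6 and 9.56 FPKM in Lv133KD, 10.6, 11.4 and 3.40 FPKM in Lv143KD, and 8.27, 13.7 and 3.60 FPKM in Lv3NC. Both held the 2 low libraries below the rest and differed by number (adjusted p = 0.0249 and 0.0091), as did the subunits of chromatin assembly factor 1, CHAF1A and CHAF1B (0.00628 and 0.0382).

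Of the genes of single-strand binding, repair and checkpoint, RPA2 (NCBI Gene 100514295; chromosome 6 from 85032604 to 85045899), part of replication protein A, had 38.7, 47.2 and 39.4 FPKM in Lv133KD, 40.7, 46.9 and 28.6 FPKM in Lv143KD, and 37.4, 46.7 and 33.3 FPKM in Lv3NC. EXO1 (NCBI Gene 100512301; chromosome 10 from 15317555 to 15360593), an exonuclease of mismatch repair, had 4.62, 5.17 and 3.93 FPKM in Lv133KD, 4.49, 4.88 and 1.98 FPKM in Lv143KD, and 3.61, 4.97 and 1.52 FPKM in Lv3NC. Their 2 lowest libraries were the same as for the genes above, but the range was 1.65-fold for RPA2 and 3.4-fold for EXO1, and both differed by number (adjusted p = 0.0168 and 0.00841). RPA1 and the mismatch repair gene MSH6 also passed (0.0149 and 0.0307). UNG, CLSPN and BRCA1 did not pass, at 0.0563, 0.144 and 0.0519.

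The genes outside this order were 10 of the 54. CCNE1, E2F8, ORC6, CDT1, GINS3, CDC7, RFC2, RFC3, RFC4 and RFC5 did not have Lv143KD replicate 3 and Lv3NC replicate 3 as their 2 lowest libraries. RFC2 had them as its 2 highest, which 18.1% of all genes tested did. A second recurring order was that of replicate 2, which was the highest library under each of the 3 vectors for 20 of 54 genes (37%), against 17.4% of all genes, FEN1, PCNA, RRM2 and TK1 among them.

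Other genes of the same pathway, 68 tested from a list of 75, were described in the same way. Lv143KD replicate 3 and Lv3NC replicate 3 were the 2 lowest libraries for 38 of 68 (55.9%), against 27.8% of all genes. They were the 2 highest for 8 (11.8%), against 18.1% of all genes. By replicate number 37 of 68 (54.4%) differed, against 36.6% of all genes. The 8 with the smallest adjusted p were not all low in number 3. The gene WEE1, whose kinase restrains cyclin-dependent kinases, was higher in number 2 than in number 1 by 0.68 on the log2 scale (limma adjusted p = 0.00085). The checkpoint kinase gene ATR was higher by 0.49 (0.00756). Number 3 minus number 1 was -0.06 for WEE1 and -0.31 for ATR, and ATR was among the 38 genes named above as low. Cyclin D2 (CCND2), the pocket protein gene RBL2, the polymerase delta subunit POLD4 and the cyclin-dependent kinase inhibitor CDKN1B were lower in number 2 than in number 1, by -0.52, -0.45, -0.44 and -0.38 (adjusted p = 0.0037, 0.0046, 0.00645 and 0.00693). CCND2, RBL2, POLD4 and CDKN1B were higher in number 3 than in number 1, by 0.13, 0.14, 0.34 and 0.12. Lower in number 3 than in number 1 were E2F4, a repressor of the E2F family, by -0.52, and the histone chaperone NASP, by -0.65. Their limma adjusted p were 0.00644 and 0.0066.

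Genes of G2/M and mitosis stood differently in the low libraries. Of 30 such genes, CDC25C alone had Lv143KD replicate 3 and Lv3NC replicate 3 as its 2 lowest libraries, and 13 (43.3%) had them as the 2 highest, against 18.1% of all genes. The median deviation from the table mean was -0.56 in Lv143KD replicate 3 and -0.57 in Lv3NC replicate 3 for the 54 G1/S and replication genes, against 0.07 and 0.28 for these 30 genes. In the other 7 libraries the median of these 30 genes lay between -0.15 (Lv143KD replicate 1) and 0.11 (Lv143KD replicate 2). The 0.07 of Lv143KD replicate 3 was thus within that range and the 0.28 of Lv3NC replicate 3 above it. The difference between the lists has no test. Sums of the epithelial and leukocyte markers were also lowest in these 2 libraries, while sums of the fibroblast, smooth muscle and endothelial markers did not set both apart. The 6 epithelial markers summed to 1374 FPKM in Lv143KD replicate 3 and 1422 FPKM in Lv3NC replicate 3, the 2 lowest of the table, and to between 1729 and 2063 FPKM in the other 7 libraries. The 8 fibroblast markers summed to between 3.27 and 5.26 FPKM in Lv133KD, 3.82 and 5.41 FPKM in Lv143KD, and 4.09 and 6.68 FPKM in Lv3NC, with replicate 3 the highest in the last 2 groups. The 5 leukocyte markers summed to between 2.79 and 3.27 FPKM in Lv133KD, 2.29 and 3.09 FPKM in Lv143KD, and 2.05 and 3.75 FPKM in Lv3NC, with replicate 3 the lowest in each group. The 4 smooth muscle markers summed to between 1.83 and 2.18 FPKM in Lv133KD, 1.53 and 2.25 FPKM in Lv143KD, and 1.49 and 2.86 FPKM in Lv3NC, with replicate 3 the highest in the last 2 groups. The 4 endothelial markers summed to between 11.3 and 12.3 FPKM in Lv133KD, to at most 13.6 FPKM in Lv143KD, in replicate 3, and to between 11.5 and 12.8 FPKM in Lv3NC. The part of these markers in the levels above was not tested.

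The comparisons of vectors asked whether these genes differed when a vector directed at a microRNA was present. None of the 54 genes passed in any of the 4 comparisons at a limma adjusted p under 0.05, with or without the replicate number as a block in the fit. With library weights, whose estimation did not converge, CDT1 was called in Lv133KD against Lv3NC (1.85% of the 54 genes; all genes: 1.76%) and in Lv143KD against Lv3NC (1.85%; all genes: 0.601%), no gene was called in Lv133KD against Lv143KD, and CDT1, ORC1, RPA2 and TYMS were called in OV143 against Lv20NC (7.41%; all genes: 23%). The intervals were wide. In the knockdown table the median standard error of the 54 genes was 0.26 on the log2 scale without the block and 0.15 with it, against 0.14 and 0.10 over all genes tested. A p above the threshold therefore does not show equal levels. Lv133KD and Lv143KD were each compared with the same 3 Lv3NC libraries, so the values of these 2 comparisons are not independent of each other.

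In Lv133KD against Lv3NC, 0 of 54 genes were called (0.0172% of all genes tested) and 47 of 54 were higher in Lv133KD (87%), against 52.3% of all genes. Their median log2 fold change was 0.26, against 0.01 over all genes. That median rested on Lv3NC replicate 3: without it the median was 0.04 and 37 genes were higher (all genes: 45.2%), and the smallest adjusted p of the 54 was 0.926 with every library in. An unadjusted p under 0.05 was found for 1 gene (all genes: 3.26%), and for 20 genes (all genes: 16.5%) with the block, where the smallest adjusted p was 0.123 and 0 genes were called (all genes: 0.258%).

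By role, origin licensing had the largest median in Lv133KD against Lv3NC after the pair of Okazaki fragment genes, 0.47 with 11 of 12 genes higher, and the clamp and its loader had -0.05 with 2 of 5 higher. Without Lv3NC replicate 3 the median was 0.16 for origin licensing, again with 11 of 12 higher, and 0.17 for the pair of Okazaki fragment genes, while the other 7 roles lay between -0.04 and 0.04. CDT1, the gene with an unadjusted p under 0.05, had a mean of 10.1 ± 1.26 FPKM in the 3 Lv133KD libraries and 4.21 ± 3.1 FPKM in the 3 Lv3NC libraries (SD). Its log2 fold change was 1.24, with an SE of 0.44 and a limma adjusted p of 0.926, and 0.123 with the block. It was 0.92 without Lv3NC replicate 3, with a 95% interval from -0.14 to 1.98. PCNA averaged 150 ± 19.3 FPKM in Lv133KD and 106 ± 51.2 FPKM in Lv3NC, a log2 fold change of 0.61 with a 95% interval from -0.35 to 1.58, which was 0.21 without Lv3NC replicate 3. TK1 averaged 40.4 ± 10.6 FPKM in Lv133KD and 29.4 ± 19 FPKM in Lv3NC, a log2 fold change of 0.63 with an interval from -0.64 to 1.90, which was 0.11 without Lv3NC replicate 3. The 3 Lv133KD libraries lay above the 3 Lv3NC libraries for CDT1, CLSPN, DTL, MCM10 and POLA2 and below them for CCNE1 and ORC6, together 7 of 54 genes (13%), against 8.02% of all genes.

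In Lv143KD against Lv3NC, 0 of 54 genes were called (0.0172% of all genes tested). The log2 fold changes centred on 0.01, with 31 of 54 genes higher in Lv143KD (57.4%; all genes: 44.2%). Both groups held a low library, and the median turned on which was in the fit: it was 0.26, with 48 genes higher (all genes: 48.9%), without Lv143KD replicate 3, and -0.20, with 4 genes higher (all genes: 37.8%), without Lv3NC replicate 3. Other libraries moved the median as well. It was -0.13 without Lv143KD replicate 1 and -0.10 without Lv143KD replicate 2. Without Lv3NC replicates 1 and 2, each left out alone, it was 0.06 and 0.17. No gene had an unadjusted p under 0.05 (all genes: 1.79%), and with the block 1 gene did (all genes: 5.74%), CDT1, whose adjusted p was then 0.733. With the block 0 genes were called (all genes: 0.172%). CDT1 averaged 7.5 ± 3.82 FPKM in Lv143KD and 4.21 ± 3.1 FPKM in Lv3NC, a log2 fold change of 0.73 (SE 0.44), which was 1.19 without Lv143KD replicate 3 and 0.42 without Lv3NC replicate 3. MCM4 averaged 72.7 ± 32.1 FPKM in Lv143KD and 71.1 ± 28.2 FPKM in Lv3NC, an interval on the log2 scale from -0.88 to 0.87, and its log2 fold change was 0.44 without Lv143KD replicate 3 and -0.35 without Lv3NC replicate 3. The groups did not overlap for ORC6 and RFC3, both lower in Lv143KD, 2 of 54 genes (3.7%) against 4.14% of all genes.

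In Lv133KD against Lv143KD, 0 of 54 genes were called (0% of all genes tested) and 51 of 54 were higher in Lv133KD (94.4%), against 58.2% of all genes. The median log2 fold change was 0.24. Without Lv143KD replicate 3 the median was 0.000156 and 27 of 54 genes were higher (all genes: 59.9%). RRM2 averaged 106 ± 16.8 FPKM in Lv133KD and 85.8 ± 36.8 FPKM in Lv143KD, a log2 fold change of 0.39 with an interval from -0.42 to 1.19. FEN1 averaged 22.4 ± 5.9 FPKM in Lv133KD and 17.2 ± 8.67 FPKM in Lv143KD (0.47, interval -0.57 to 1.52). Without Lv143KD replicate 3 these log2 fold changes were -0.00028 for RRM2 and 0.000593 for FEN1. No gene had groups that did not overlap (all genes: 2.66%), and no gene had an unadjusted p under 0.05 (all genes: 0.129%), while with the block 12 did (all genes: 1.79%) and 0 were called (all genes: 0%; smallest adjusted p 0.91).

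**Figure D5:**
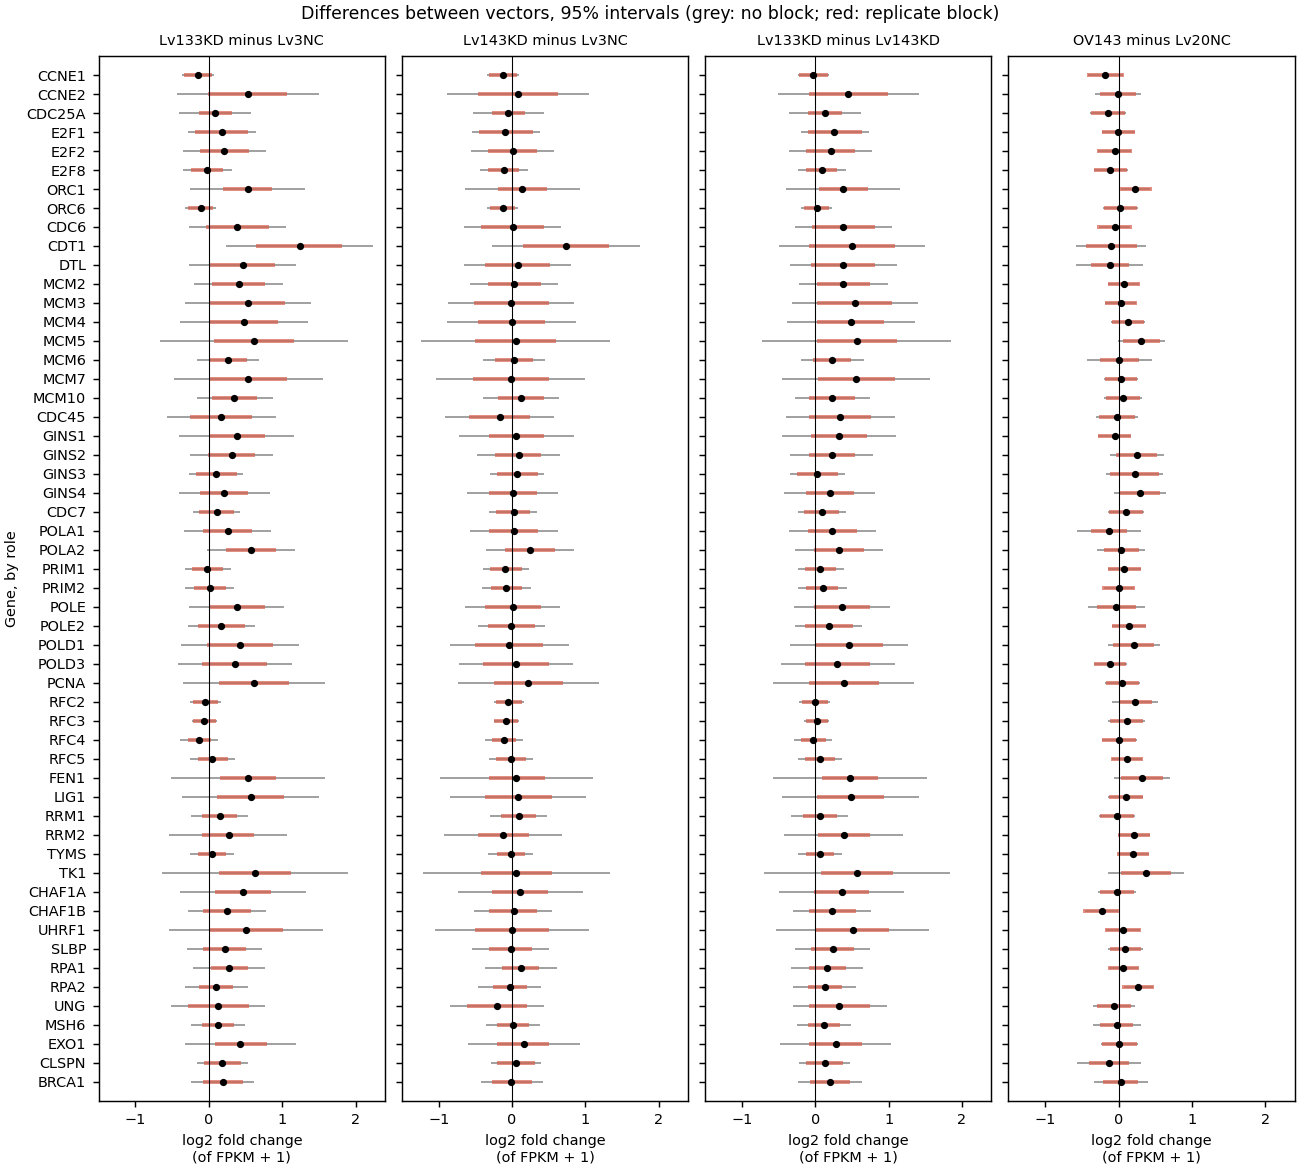
Log2 fold changes of FPKM + 1 for the 54 genes in the 4 comparisons of vectors, with 95% intervals from the fit without the block (grey) and with it (red). Without the block the intervals cross 0 for all genes but CDT1 in Lv133KD minus Lv3NC and CHAF1B, ORC1 and RPA2 in OV143 minus Lv20NC, and they are narrower in OV143 minus Lv20NC, where the median standard error was 0.10, than in the knockdown table, where it was 0.26.

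In the overexpression table no gene differed by replicate number at an adjusted p under 0.05 (all genes: 0.0521%), and the smallest adjusted p was 0.136, for POLA1, with 6 genes at an unadjusted p under 0.05 (all genes: 26.2%). The number of genes with an adjusted p under 0.05 was 5 without Lv20NC replicate 1 (9.26%; all genes: 19.1%) and 20 without Lv20NC replicate 2 (37%; all genes: 54.8%), below the share of all genes in both. The levels were close between libraries. PCNA had 153, 169.5 and 147 FPKM in OV143 and 143, 152 and 158 FPKM in Lv20NC. MCM4 had 81.8, 97.01 and 89.01 FPKM in OV143 and 82.1, 80.3 and 81.5 FPKM in Lv20NC. OV143 replicate 2 was the highest library for both genes, and the other 5 libraries lay between 143 and 158 FPKM for PCNA and between 80.3 and 89.0 FPKM for MCM4.

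In OV143 against Lv20NC, 0 of 54 genes were called (0% of all genes tested), and 34 of 54 were higher in OV143 (63%), against 45.8% of all genes. The median log2 fold change was 0.03, against -0.02 over all genes, and it was 0.07 without OV143 replicate 2, where 0 of 54 genes were called (all genes: 4.48%). An unadjusted p under 0.05 was found for 3 genes (all genes: 11.3%), RPA2, ORC1 and CHAF1B, and for 7 with the block (all genes: 19.9%), where 0 were called (all genes: 1.94%). The groups did not overlap for 10 of 54 genes (18.5%), against 21.9% of all genes. FEN1, MCM5, ORC1, RFC5, RPA2, RRM2, TK1 and TYMS had every OV143 library above every Lv20NC library, and CCNE1 and CHAF1B had every OV143 library below.

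The single-strand binding subunit RPA2 had 53.7, 56.5 and 52.95 FPKM in OV143 and 43.4, 44.8 and 46.9 FPKM in Lv20NC. Its log2 fold change was 0.27 (SE 0.09, limma adjusted p = 0.306, and 0.172 with the block). ORC1 had 20.97, 20.9 and 22.3 FPKM in OV143 and 18.1, 17.7 and 18.4 FPKM in Lv20NC, a log2 fold change of 0.23 (SE 0.09, adjusted p = 0.367). CHAF1B had 5.24, 4.47 and 4.73 FPKM in OV143 and 5.71, 6.13 and 5.63 FPKM in Lv20NC, a log2 fold change of -0.23 (SE 0.10, adjusted p = 0.439). In each of these 3 genes the 2 groups did not overlap, which also held for 21.9% of all genes tested.

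For other genes the difference came mostly through OV143 replicate 2. TK1 had 23.6, 41.8 and 22.6 FPKM in OV143 and 21.2, 21.8 and 21.4 FPKM in Lv20NC, and FEN1 had 16.04, 23.8 and 15.7 FPKM in OV143 and 14.03, 14.3 and 14.8 FPKM in Lv20NC. In both, OV143 replicates 1 and 3 were just above the controls and replicate 2 far above, and the log2 fold changes were 0.38 (SE 0.22) and 0.32 (SE 0.16), with adjusted p of 0.565 and 0.507. Without OV143 replicate 2 they were 0.10 and 0.13. CDT1 had 8.80, 14.6 and 8.02 FPKM in OV143 and 12.02, 10.6 and 10.3 FPKM in Lv20NC. There OV143 replicate 2 was the highest library and the other 2 OV143 libraries the lowest, with a log2 fold change of -0.10 (SE 0.21), and of -0.34 (SE 0.10, adjusted p = 0.068) without OV143 replicate 2. RRM2 had 112, 120.2 and 118 FPKM in OV143 and 102, 93.7 and 108 FPKM in Lv20NC, a log2 fold change of 0.21 (SE 0.10, adjusted p = 0.47), with OV143 above Lv20NC throughout.

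Among the G1/S regulators, E2F1 had 17.4, 20.6 and 18.3 FPKM in OV143 and 18.6, 18.8 and 18.9 FPKM in Lv20NC, and CCNE2 had 8.96, 6.37 and 8.23 FPKM in OV143 and 7.96, 7.28 and 8.19 FPKM in Lv20NC. Neither pair of groups separated, and the log2 fold changes of -0.00478 and -0.00302 became 0.05 for each when libraries were rescaled to a common median. CCNE1 had 4.34, 3.85 and 4.53 FPKM in OV143 and 4.82, 5.25 and 4.71 FPKM in Lv20NC, with OV143 below in every library (log2 fold change -0.18, SE 0.10, adjusted p = 0.549). GINS1 had 27.9, 25.4 and 29.9 FPKM in OV143 and 29.7, 28.2 and 28.5 FPKM in Lv20NC. GINS2 had 4.55, 7.21 and 5.0 FPKM in OV143 and 4.58, 4.66 and 4.15 FPKM in Lv20NC, and POLA2 had 23.6, 31.6 and 22.7 FPKM in OV143 and 25.6, 26.2 and 23.3 FPKM in Lv20NC. In the last 2 genes OV143 replicate 2 was the highest of the 6 libraries, and in GINS1 it was the lowest. SLBP had 54.4, 65.9 and 56.9 FPKM in OV143 and 53.1, 57.8 and 54.4 FPKM in Lv20NC. UHRF1 had 10.5, 9.47 and 9.30 FPKM in OV143 and 9.48, 8.70 and 9.75 FPKM in Lv20NC, and EXO1 had 5.55, 4.60 and 4.94 FPKM in OV143 and 5.13, 4.56 and 5.26 FPKM in Lv20NC. The groups overlapped for these 3 genes, whose log2 fold changes were 0.09, 0.06 and 0.01.

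Among the 68 other genes of the pathway, no gene passed in any of the 4 comparisons with or without the block. The nearest was cyclin D1 (CCND1), the G1 cyclin that acts with CDK4, which had a log2 fold change of -0.46 in OV143 against Lv20NC (SE 0.09, limma adjusted p = 0.152, and 0.0513 with the block), with every OV143 library below every Lv20NC library. The median log2 fold change in OV143 against Lv20NC was 0.03 for the 54 G1/S and replication genes, against 0.30 for the 30 genes of G2/M and mitosis, of which 30 were higher in OV143, and -0.02 over all genes. With the block 4 of these 30 mitotic genes passed, against 1.94% of all genes. They were BIRC5, CDC20, KIF20A and NUSAP1 (limma adjusted p = 0.0463, 0.0438, 0.031 and 0.0313). Without the block 0 passed (smallest adjusted p 0.124), against 0% of all genes. These 4 calls are not given without OV143 replicate 2. In that library the distance from the other OV143 libraries went with gene span for the 30 genes (rank correlation -0.78). The median deviation of the 30 genes from the table mean was 0.19, 0.05 and 0.26 in OV143, in replicate order. It was -0.15, -0.24 and -0.08 in Lv20NC.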

How the data were processed

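Total RNA of the pig cell line IPEC-J2 was sequenced, with 15 libraries in 5 vector groups of 3, as the labels give them. Per the file headers, the authors deposited gene-level FPKM, rounded to 2 decimals, in one table of 9 knockdown libraries and another of 6 overexpression libraries. The genome build is Sscrofa11.1 per the submitters' processing notes. Aligner, counter, annotation and strand use are not stated, that is, not given in the sources used here, so reads shared with overlapping, antisense or near-identical genes cannot be told apart. Symbols and 1-based coordinates were looked up in a RefSeq gene table on that build, which matched 18618 of 19000 and 16949 of 17001 genes. FPKM keeps no read totals, and low values showed no common step between libraries, so depth is unknown and precision is given as the SD over 3 libraries or the standard error of the fit. No sample column was left out, and no pair of libraries was identical.

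The scale was log2(FPKM + 1), on which low genes show smaller differences than on FPKM itself. The filter kept genes that reached 1 FPKM in 3 or more libraries of a table, and these were fitted together with limma 3.58.1 in R 4.3.3 (trended empirical Bayes, two-sided tests, Benjamini-Hochberg adjustment over all genes of the table, threshold 0.05). The vector group was the term of the fit, and an alternative added the replicate number as a block. Within-group deviations of libraries that share a number correlated at 0.27 to 0.85 (9 pairs, knockdown table) and 0.23 to 0.72 (3 pairs, overexpression table). These values were above the limit of 0.1 for pairing. Libraries of different number correlated at -0.87 to 0.38 (18 pairs, knockdown table) and -0.68 to 0.54 (6 pairs, overexpression table), so the ranges overlapped. What the numbers stand for is not labelled. The fit was tested on simulated data.

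The 54 genes, the lists of other pathway and G2/M genes and the tests were chosen with earlier results of these data known. Named genes were those called in a comparison of vectors (none were) and, in each of the 9 roles, the gene with the highest mean FPKM in the knockdown table and the one with the largest mean absolute log2 fold change over the 4 comparisons. Members of named complexes were named with their levels, and of other pathway genes at most 8 that were called. The other members, CCND1 and the mitotic genes were named after their values were seen. Of 75 other pathway genes 71 were listed and 68 tested, and CDK6, CDKN2A, TIMELESS and NPAT were not analysed here. No sequences were used.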

Additional observations from a re-analysis of the deposited data

How the results depend on the processing

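The number of the 54 genes called stayed at 0 in the 4 comparisons of vectors under pseudocounts of 0.1 and 0.5, no filter on low values, a filter of 5 FPKM, rescaling to a common median, quantile normalization and the omission of any 1 library. Library weights, whose estimation did not converge, gave 1 called gene in Lv133KD against Lv3NC (all genes: 1.76%) and 1 in Lv143KD against Lv3NC (all genes: 0.601%), CDT1 in both (adjusted p = 0.0207 and 0.0494), and 4 in OV143 against Lv20NC (7.41%; all genes: 23%). The median log2 fold change of the 54 genes ranged, with 1 library left out, from 0.04 to 0.40 in Lv133KD against Lv3NC, from -0.20 to 0.26 in Lv143KD against Lv3NC, from 0.000156 to 0.41 in Lv133KD against Lv143KD and from 0.03 to 0.07 in OV143 against Lv20NC, where rescaling to a common median gave 0.09. That rescaling left 46 of 54 genes higher in Lv133KD against Lv3NC (43.3% of all genes), 48 in Lv133KD against Lv143KD (43.2%) and 42 in OV143 against Lv20NC (57.1%). The count of genes that differed by replicate number ran from 6 of 54 (all genes: 14.1%) to 49 (90.7%; all genes: 59.4%) in the knockdown table with 1 library left out, was 14 (25.9%; all genes: 16.5%) with no filter on low values, where 18287 genes were tested, and 12 (22.2%; all genes: 24.8%) without Lv143KD replicate 3 and Lv3NC replicate 3, and ran from 0 to 20 (37%; all genes: 54.8%) in the overexpression table. The causes were not tested.

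With the replicate number as a block, the count of called genes was 0 in the 4 comparisons, with smallest adjusted p of 0.123, 0.733, 0.91 and 0.172. In alternatives added after the data were seen, the block without the libraries numbered 1 called TK1 in OV143 against Lv20NC (1 gene, 1.85%; all genes: 6.03%), and without those numbered 2 it called CDT1 and RPA2 (2 genes, 3.7%; all genes: 12.8%). The block changed no other call of the 54 genes.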

Other observations

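In the overexpression table, the position of OV143 replicate 2 went with the length of the genes. The 28 of 54 G1/S and replication genes that were highest there among the 3 OV143 libraries had a median genomic span of 17.7 kb, and the 24 that were lowest there had a median span of 30.5 kb. The rank correlation between span and the distance of replicate 2 from the other 2 libraries was -0.47 over the 54 genes and -0.59 over 11482 genes, a description within 1 library with no test. TK1, FEN1 and MCM5 were among the genes above the other OV143 libraries there, and POLA1, DTL and CLSPN among those below.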
